A study of Mus musculus with 21 samples.

Results

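The genes described here are the core of the PI3K, Akt and mTOR signaling pathway: *Mtor*, *Rptor*, *Rictor*, *Tsc1*, *Tsc2*, *Akt1* and *Rheb*. They were chosen by gene symbol from the table of cortical expression values, and all 7 were found among its 5544 genes. Total RNA was taken from the cortex of male C57BL/6 mice, labelled as 12 weeks old, 24 h after the last session, with 1 library per mouse. The 11 HF-HI (high-frequency head impact) mice had received repeated closed head impacts under isoflurane on consecutive days, and the 10 sham mice had the same handling and anesthesia without impacts. Both groups were therefore exposed to isoflurane, and the columns are marked WT (wild type). The values are variance-stabilized, in log2 units, so a difference of 1 is close to a doubling for genes with many reads and understates the change of genes with few. The cortex was homogenized whole, and a lower level can therefore stand for fewer cells of a type or for less RNA per cell, which cannot be told apart in bulk RNA.

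Growth factors and neurotrophins activate PI3K, whose lipid product draws the kinase Akt to the membrane, where it is switched on. Akt phosphorylates Tsc2, which together with Tsc1 holds the small GTPase Rheb in its inactive state, and active Rheb turns on the kinase mTOR. mTOR works in 2 complexes. Raptor, the product of *Rptor*, defines mTORC1, which drives ribosome production and cap-dependent translation and restrains autophagy, and Rictor defines mTORC2, which phosphorylates Akt and shapes the cytoskeleton. In neurons mTORC1 controls dendritic protein synthesis, and loss of either *TSC1* or *TSC2* causes tuberous sclerosis, a disease with epilepsy and cognitive impairment.

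Each gene was tested with limma, the p-values were adjusted by the Benjamini-Hochberg method over the 5544 genes, and a gene was called changed at an adjusted p under 0.05. By that rule 66.3% of all genes were called, 32.6% higher and 33.6% lower in HF-HI, so a call on its own says little about a gene. All genes here means the 5544 of the table, which does not hold every gene. Of 131 pathway genes listed by name, 75 were in it. With the libraries centred on their medians the split of all calls was 1448 higher and 2376 lower, in place of 1810 and 1864. The groups also differed in how the values of a library followed the exonic GC content of its genes: this slope ran from -0.23 to 0.0058 log2 units per 10% GC in sham and from -0.039 to 0.16 in HF-HI. Differences are HF-HI minus sham throughout. Differences are given as deposited and, beside them, with that trend removed. Depth relative to the median library had a median of 0.864 in sham and of 1.17 in HF-HI. It ran from 0.580 to 1.26 in sham and from 0.548 to 1.64 in HF-HI. HF-HI replicate 9 stood apart, with a root mean square deviation from its group of 0.232 on the log2 scale against 0.0981 to 0.180 in the other 20 libraries, and its GC slope was the lowest of the HF-HI group. Markers fixed for neurons were all in the table, 10 of 10, as were all 8 for astrocytes and all 8 for oligodendrocytes, against 2 of 8 for microglia, 2 of 6 for endothelium and 1 of 4 for choroid plexus. The summed level of the neuron markers ran from 16.09 to 16.27 in sham and from 16.30 to 16.48 in HF-HI, without overlap. Single genes did not overlap in 13.5% of cases, 8.71% with HF-HI higher. Of the 10 neuron markers 7 were higher and 0 lower, where 32.6% and 33.6% of all genes were. The summed astrocyte markers were at 16.03 to 16.15 against 16.07 to 16.21, the oligodendrocyte markers at 15.34 to 16.06 against 15.37 to 16.05, the 2 microglia markers at 10.53 to 10.72 against 10.42 to 10.64 and the 2 endothelial markers at 9.98 to 10.13 against 10.04 to 10.23. Of the 8 astrocyte markers 3 were higher and 2 lower, and of the 8 oligodendrocyte markers 2 were higher and 0 lower. Of the 2 microglia markers 1 was higher and 1 lower, as of the 2 endothelial markers. The choroid plexus marker *Ttr* ranged from 6.16 to 11.51 in sham and from 6.86 to 13.35 in HF-HI. The part of cell composition in the results that follow was not tested.

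Stretches upstream of the start sites of 4 of the 5 core genes called are shown: *Mtor*, *Rptor* and *Tsc2*, higher in HF-HI, and *Rictor*, lower. The stretch of *Akt1*, which was also lower, is not printed. The stretches shown are RefSeq windows of build GRCm38.p6, cut to the bases outside annotated exons, and are written 5′ to 3′ on the strand of the gene. Capitals mark a GC box, GGGCGG on either strand, a motif bound by Sp1.
Mtor, chr4:148448332-148448581, plus strand: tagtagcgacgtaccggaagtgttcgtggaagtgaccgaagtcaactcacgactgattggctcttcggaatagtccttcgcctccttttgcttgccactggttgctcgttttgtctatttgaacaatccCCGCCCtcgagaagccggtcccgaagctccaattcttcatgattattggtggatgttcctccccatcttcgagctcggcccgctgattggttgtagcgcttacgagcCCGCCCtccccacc
Rptor, chr11:119602655-119602904, plus strand: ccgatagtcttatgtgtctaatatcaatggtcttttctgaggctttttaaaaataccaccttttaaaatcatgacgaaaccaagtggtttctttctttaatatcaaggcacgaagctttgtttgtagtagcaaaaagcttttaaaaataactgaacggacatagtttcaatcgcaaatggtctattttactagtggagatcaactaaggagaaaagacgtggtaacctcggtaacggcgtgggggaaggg
Rictor, chr15:6708131-6708378, plus strand: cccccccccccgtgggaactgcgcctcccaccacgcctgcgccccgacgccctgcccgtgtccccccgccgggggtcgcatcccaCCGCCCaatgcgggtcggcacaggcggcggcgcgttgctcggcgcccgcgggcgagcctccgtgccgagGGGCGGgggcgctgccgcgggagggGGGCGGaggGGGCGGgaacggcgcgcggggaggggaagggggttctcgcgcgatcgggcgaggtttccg
Tsc2, chr17:24632631-24632679, minus strand: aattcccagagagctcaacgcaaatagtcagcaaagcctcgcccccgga
The *Tsc2* stretch is short because exons of the neighbouring *Nthl1* and of *Tsc2* cover the rest of its window. The whole window of *Rheb* is covered by annotated exons of *Rheb*, so its GC content and motifs are of sequence annotated as exon. Over the 250 bases before the start, GC content was 81.2% for *Rictor*, 68.0% for *Rheb*, 62.8% for *Tsc2*, 54.4% for *Mtor* and for *Tsc1*, 52.0% for *Akt1* and 37.6% for *Rptor*, against a median of 52.4% over 32851 promoters. These are the promoters of the RefSeq set, not limited to the genes of the table, and the shares of all promoters below are of the same set. The sister subunits *Rptor* and *Rictor* thus had the lowest and the highest promoter GC content of the 7 genes, with 9 and 40 CpG sites. *Rictor* held 4 GC boxes, *Mtor* 2 and *Rheb* 1, and 32.7% of all promoters held at least 1. The E-box CACGTG, bound by Tfeb and Myc, was found once, in *Rheb*, and in 6.02% of all promoters, and the FOXO element GTAAACA once, in *Akt1*, and in 3.17%. CCAAT boxes were found 4 times in *Mtor* and once in *Rictor*, and in 33.8% of all promoters. No match was found in the 7 windows for TATAAA, which 12.4% of all promoters held, nor for the CRE, TGACGTCA (1.55%), or the NRF1 element (0.782%). None of these motifs was found in the window of *Rptor*, *Tsc1* or *Tsc2*. Both strands were searched, and in *Rictor* the CCAAT box shares bases with a GC box.

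Of the 7 genes, 3 were higher in HF-HI (*Tsc2*, *Rptor* and *Mtor*), 2 were lower (*Rictor* and *Akt1*), and *Tsc1* and *Rheb* were not past the threshold. The 5 called make up 71.4% of the 7, close to the 66.3% of all genes. The median difference of the 7 was 0.026 on the log2 scale, against -0.0086 over all genes. After removal of the GC trend, 3 of the 7 were called, where 60.2% of all genes were: *Tsc2* and *Rptor* were higher, as were 29.2% of all genes, and *Akt1* was lower, as were 31.0%. The median of the 7 was then 0.013. *Rictor*, which was lower, was the 1 gene of the 7 whose groups did not overlap, which was the case for 13.5% of all genes, 8.71% with HF-HI higher and 4.76% with HF-HI lower.

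**Figure D1:**
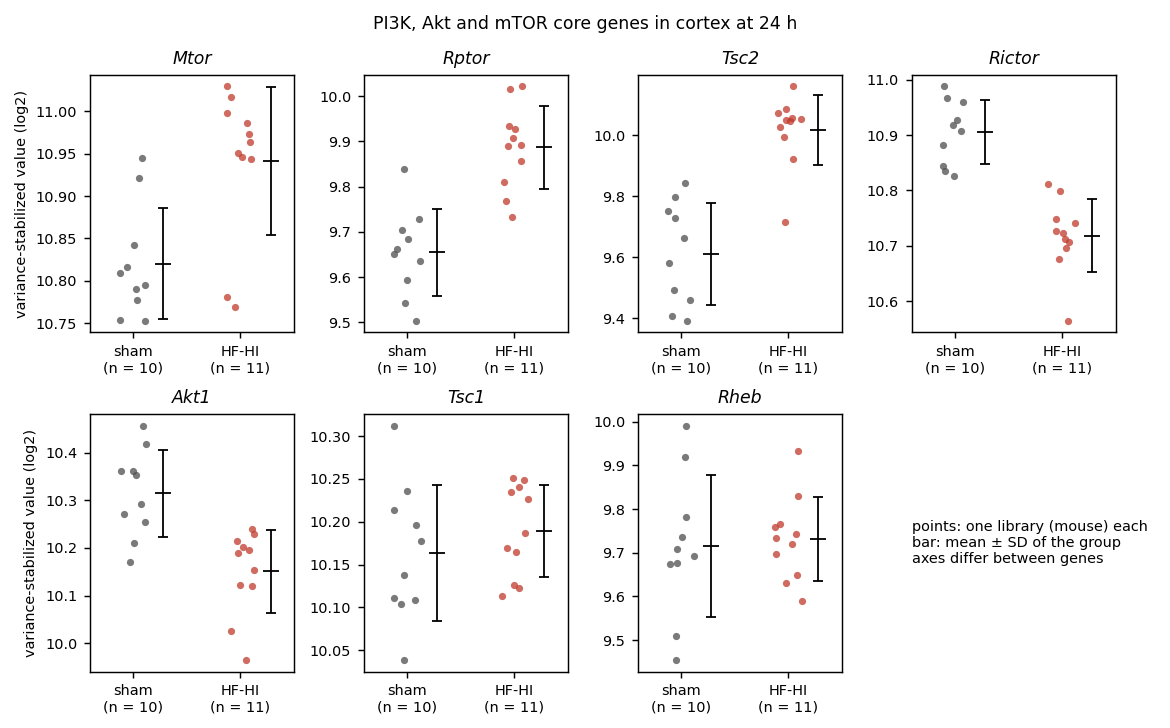
Variance-stabilized values (log2, vertical axes, which differ between genes) of the 7 core genes in the 10 sham (grey) and 11 HF-HI (red) libraries. Each point is 1 library and the bars give the mean ± SD of the group. All HF-HI points of *Rictor* lie below the sham points, and 10 of 11 HF-HI points of *Tsc2* lie above them. For *Tsc1* and *Rheb* the HF-HI points lie within the wider sham range.

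Tsc2 is the GTPase-activating subunit of the complex that inactivates Rheb. *Tsc2* (ENSMUSG00000002496, chromosome 17 from 24595816 to 24632630 of GRCm38, minus strand) had values of 9.39 at the lowest, 9.62 at the median and 9.85 at the highest in sham, and of 9.72, 10.05 and 10.16 in HF-HI. Of the 11 HF-HI libraries, 10 lay above every sham library, and the exception was replicate 9. The mean was 9.61 ± 0.168 (SD, n = 10) in sham against 10.02 ± 0.116 (SD, n = 11) in HF-HI, a change of 0.41 on the log2 scale (SE 0.0591, limma adjusted p = 3.40e-06), a ratio of 1.32. This was the largest change of the 7, and 9.97% of all genes had a larger one. It was 0.25 with the GC trend removed (adjusted p = 4.07e-05 from the same test) and 0.44 without HF-HI replicate 9 (adjusted p = 4.41e-07). Of the exonic bases of *Tsc2*, 7.20% are shared with *Pkd1*, which lies on the opposite strand and had a log2 difference of 0.12 (adjusted p = 0.0549, -0.054 with the GC trend removed). The libraries were stranded, but the strand setting of the counting is not given in the sources used here.

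Tsc1, or hamartin, stabilizes Tsc2 in the same complex. *Tsc1* (ENSMUSG00000026812, chromosome 2 from 28641228 to 28691167, plus strand) ran from 10.04 through a median of 10.16 to 10.31 in sham and from 10.11 through 10.19 to 10.25 in HF-HI. The HF-HI range lay within the sham range. The log2 difference was 0.026 (95% interval -0.040 to 0.092, adjusted p = 0.489 from limma's test). Its sign turned when library medians were centred (-0.026), after quantile normalization (-0.011) and without the GC trend (-0.019), and it passed the threshold under none of these.

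The partners were therefore compared within each library, where any scaling of the whole library drops out. *Tsc2* minus *Tsc1* was -0.55 ± 0.159 (SD, n = 10) in sham against -0.17 ± 0.0906 (SD, n = 11) in HF-HI. These differences are not corrected for gene length, so only their change between the groups can be read. They ran from -0.78 to -0.31 in sham and from -0.41 to -0.065 in HF-HI, and 10 of 11 HF-HI libraries lay above every sham library. The change was 0.38 (permutation test, two-sided, p = 2e-05, the lowest value possible with these resamples, and adjusted p = 4.00e-05 over the 4 pairs compared). After removal of the GC trend it was 0.27 and still past the threshold.

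Raptor recruits substrates to mTORC1. *Rptor* (ENSMUSG00000025583, chromosome 11 from 119602905 to 119899576, plus strand) had values of 9.50 at the lowest, 9.66 at the median and 9.84 at the highest in sham, and of 9.73, 9.89 and 10.02 in HF-HI. Of the 11 HF-HI libraries, 8 lay above every sham library and all 11 above the sham median. The mean was 9.65 ± 0.0956 (SD, n = 10) in sham against 9.89 ± 0.0913 (SD, n = 11) in HF-HI, a change of 0.23 on the log2 scale (SE 0.0411, limma adjusted p = 3.59e-05), a ratio of 1.17. It was 0.11 with the GC trend removed, smaller and still past the threshold (adjusted p = 0.00737). The antisense gene *Rptoros* shares 0.624% of its exonic bases.

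Rictor is the subunit that gives mTORC2 its identity and its insensitivity to acute rapamycin. *Rictor* (ENSMUSG00000050310, chromosome 15 from 6708379 to 6800401, plus strand) ran from 10.83 through a median of 10.91 to 10.99 in sham and from 10.56 through 10.72 to 10.81 in HF-HI. Every HF-HI library lay below every sham library. The mean fell from 10.91 ± 0.0578 (SD, n = 10) to 10.72 ± 0.0652 (SD, n = 11), a change of -0.19 on the log2 scale (SE 0.0303, limma adjusted p = 1.28e-05), a ratio of 0.878. *Rictor* has the lowest exonic GC content of the 7, 40.5%, and with the GC trend removed its difference was -0.067 and not past the threshold (adjusted p = 0.101), with 1 HF-HI library below the sham range.

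*Rptor* and *Rictor* therefore changed in opposite directions in the values as deposited. Within a library, *Rptor* minus *Rictor* was -1.25 ± 0.115 (SD, n = 10) in sham against -0.83 ± 0.0780 (SD, n = 11) in HF-HI. It ran from -1.37 to -0.99 in sham and from -0.96 to -0.69 in HF-HI, without overlap. The change of 0.42 was the largest of the 4 pairs compared (permutation test, two-sided, p = 2e-05, the lowest value possible with these resamples, adjusted p = 4.00e-05). Without the GC trend it was 0.18 and past the threshold, and with each library left out in turn it stayed between 0.41 and 0.45.

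**Figure D2:**
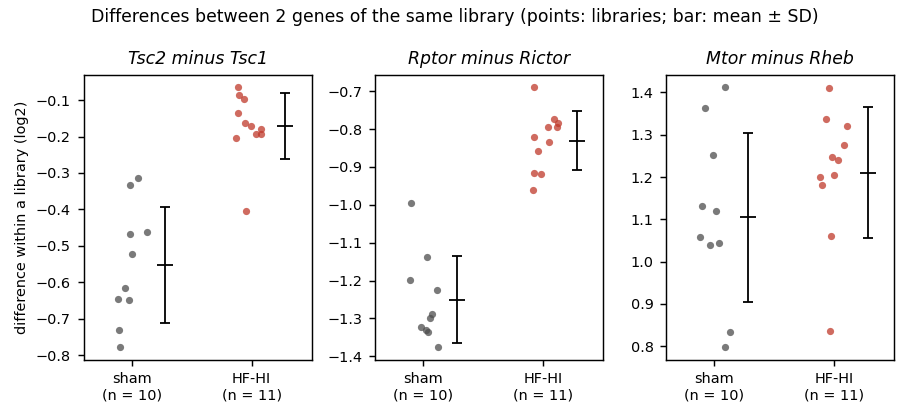
Differences between 2 genes of the same library (log2, vertical axes) in the 10 sham (grey) and 11 HF-HI (red) libraries, with the mean ± SD of each group as bars. *Rptor* minus *Rictor* does not overlap between the groups, *Tsc2* minus *Tsc1* overlaps in 1 HF-HI library, and *Mtor* minus *Rheb* overlaps broadly.

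mTOR itself is the kinase of both complexes. *Mtor* (ENSMUSG00000028991, chromosome 4 from 148448611 to 148557683, plus strand) had values of 10.75 at the lowest, 10.80 at the median and 10.94 at the highest in sham, and of 10.77, 10.96 and 11.03 in HF-HI. Of the 11 HF-HI libraries, 8 lay above every sham library, while replicates 9 and 11 were at 10.77 and 10.78, within the lower part of the sham range. These are the HF-HI libraries with the lowest relative depth, 0.573 and 0.548, and the lowest GC slopes. The mean was 10.82 ± 0.0657 (SD, n = 10) in sham against 10.94 ± 0.0873 (SD, n = 11) in HF-HI, a change of 0.12 on the log2 scale (SE 0.0355, limma adjusted p = 0.00454), a ratio of 1.09. The call did not hold with library medians centred (0.070, adjusted p = 0.0740) or with the GC trend removed (0.013, adjusted p = 0.663). With relative depth as a covariate the change was 0.092 (limma adjusted p = 0.0234).

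Rheb is the GTPase that activates mTORC1 at the lysosome. *Rheb* (ENSMUSG00000028945, chromosome 5 from 24802823 to 24842624, minus strand) ran from 9.45 through a median of 9.701 to 9.99 in sham and from 9.59 through 9.73 to 9.93 in HF-HI. The HF-HI range lay within the sham range, and sham had nearly the largest SD of the 7 genes, 0.162. The log2 difference was 0.017 (95% interval -0.097 to 0.13, adjusted p = 0.801 from limma's test). Its sign was not fixed: it was -0.035 with library medians centred, -0.031 with quantile normalization and -0.0036 without HF-HI replicate 9, and 0.054 after removal of the GC trend. *Mtor* minus *Rheb* was 1.11 ± 0.200 (SD, n = 10) in sham against 1.21 ± 0.154 (SD, n = 11) in HF-HI, a change of 0.10 that was not past the threshold (permutation test, two-sided, p = 0.190, adjusted p = 0.190).

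Akt1 is a widely expressed Akt kinase and an upstream inhibitor of Tsc2. *Akt1* (ENSMUSG00000001729, chromosome 12 from 112653821 to 112674884, minus strand) ran from 10.17 through a median of 10.32 to 10.46 in sham and from 9.97 through 10.19 to 10.24 in HF-HI. Of the 11 HF-HI libraries, 5 lay below every sham library, and 9 of 10 sham libraries lay above the HF-HI median. The mean fell from 10.31 ± 0.0908 (SD, n = 10) to 10.15 ± 0.0871 (SD, n = 11), a change of -0.16 on the log2 scale (SE 0.0394, limma adjusted p = 9.21e-04), a ratio of 0.893. *Akt1* has the highest exonic GC content of the 7, 60.6%, and the GC trend of the libraries ran against its difference. With that trend removed the difference was -0.47 (adjusted p = 1.26e-09 from limma's test). Every HF-HI library, from 9.90 to 10.07, then lay below every sham library, from 10.28 to 10.65. The SD was then 0.110 in sham and 0.0582 in HF-HI. How many of all genes did not overlap was counted only for the values as deposited.

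*Akt2*, the isoform tied to insulin responses, was 9.53 ± 0.137 (SD, n = 10) in sham against 9.72 ± 0.101 (SD, n = 11) in HF-HI, higher by 0.20 (adjusted p = 0.00168 from limma's test), and 0.031 and short of the threshold without the GC trend (adjusted p = 0.625). Its difference from sham was thus opposite in sign to that of *Akt1* in the values as deposited.

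**Figure D3:**
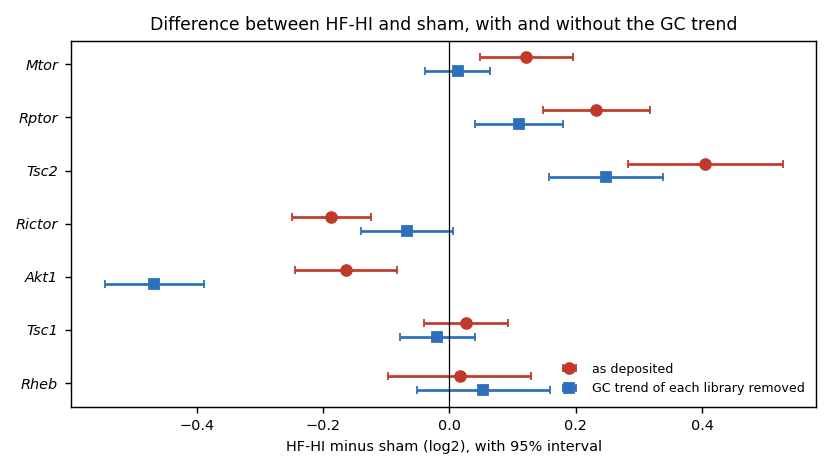
Difference between HF-HI and sham (log2, horizontal axis) with its 95% interval for the 7 core genes, as deposited (red circles) and after removal of the GC trend (blue squares). *Tsc2* and *Rptor* stay above 0 in both, *Mtor* and *Rictor* move toward 0, and *Akt1* moves from -0.16 to -0.47.

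Within the groups the genes differed in how they went with the GC slope of the libraries. Taken as deviations from the group means over the 21 libraries, Pearson's r with the GC slope was 0.81 for *Mtor*, 0.81 for *Tsc2*, 0.62 for *Rptor*, 0.59 for *Akt1*, 0.55 for *Tsc1*, 0.040 for *Rictor* and -0.65 for *Rheb*. These points share the same 21 libraries. With relative depth on a log2 scale, r was largest for *Mtor*, 0.50, and *Akt1*, 0.46. The part of base composition, and of what sets it, in the differences of *Mtor* and *Rictor* was not tested beyond the values given.

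**Figure D4:**
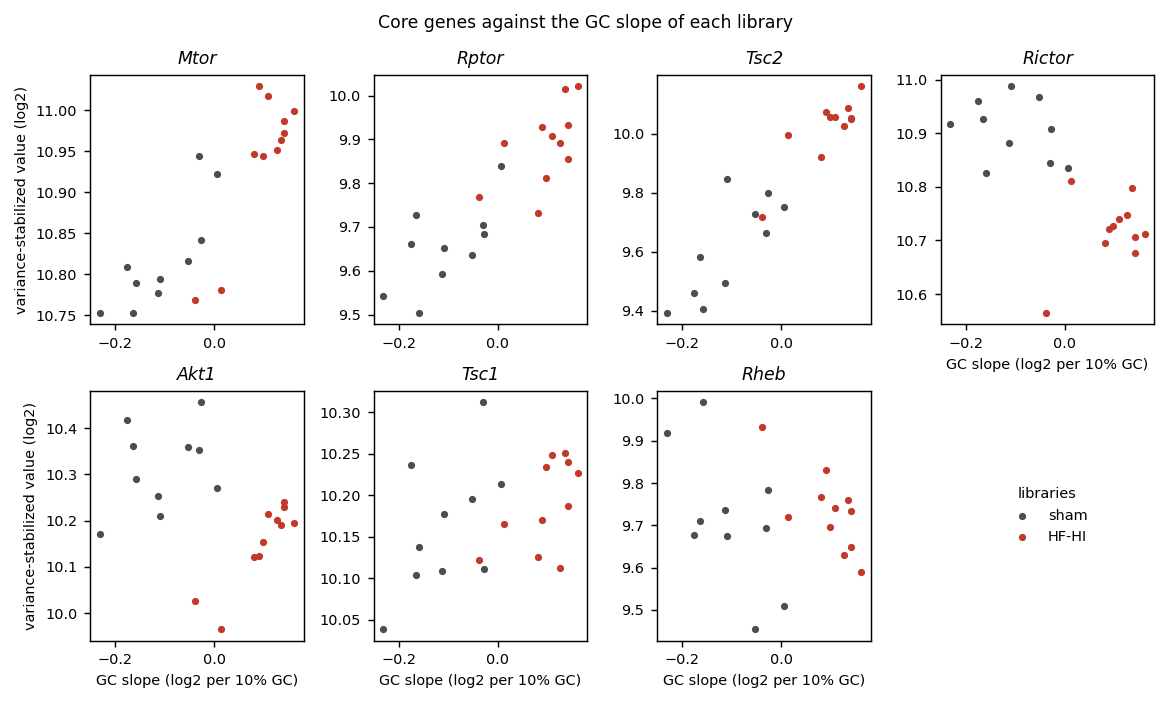
Variance-stabilized value (log2, vertical axes) of each core gene against the GC slope of the library (log2 units per 10% GC, horizontal axes), 1 point per library, sham in grey and HF-HI in red. *Mtor* and *Tsc2* rise with the slope within both groups, The slopes of the groups overlap in few libraries, and the HF-HI libraries with the lowest slopes have the lowest values of *Akt1*.

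Levels were compared between the genes after subtracting the log2 of the exonic length in kb, so that they are values per kb. In sham the order from the top was *Akt1* at 8.28 ± 0.0908 (SD, n = 10), *Mtor* at 7.48 ± 0.0657, *Rictor* at 6.82 ± 0.0578, *Rheb* at 6.77 ± 0.162, *Tsc1* at 6.60 ± 0.0794, *Tsc2* at 6.35 ± 0.168 and *Rptor* at 5.90 ± 0.0956. The ranges of *Akt1*, *Mtor* and *Rictor* were separate from each other, as were those of *Tsc2* and *Rptor*, while *Rictor*, *Rheb*, *Tsc1* and *Tsc2* overlapped with their neighbours in that order. In HF-HI *Tsc2* stood at 6.75 ± 0.116 (SD, n = 11) per kb and *Tsc1* at 6.62 ± 0.0536. Per kb, *Tsc1* exceeded *Tsc2* in 10 of 10 sham libraries and in 1 of 11 HF-HI libraries. This order rests on the exonic lengths, 11.8 kb for *Tsc1* and 9.62 kb for *Tsc2*, taken over all annotated transcripts. Before the correction *Tsc2* minus *Tsc1* was below 0 in every library, with highest values of -0.31 in sham and -0.065 in HF-HI. The permutation test given above was of the change in this difference, not of which gene stood higher. Per kb, *Rictor* exceeded *Rheb* in 7 of 10 sham libraries and in 0 of 11 HF-HI libraries, an order that rests on the exonic lengths as well. *Mtor* exceeded *Rictor* by 0.66 ± 0.107 in sham and by 0.97 ± 0.0958 in HF-HI, and *Rptor* was lowest in both groups. All levels per kb are of the values as deposited. With the GC trend removed, the HF-HI minus sham differences of *Mtor* and *Rictor* were 0.013 and -0.067. Neither was past the threshold, so the wider gap between these 2 genes in HF-HI is a result of the deposited values. The paralogue *Akt2*, at 6.69 ± 0.137 per kb in sham, was below *Akt1*.

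The members varied together to different degrees from mouse to mouse. Over the 21 pairs of the 7 genes, Pearson's r of the deviations from the group means over 21 libraries had a median of 0.35 and ran from -0.66 for *Tsc2* and *Rheb* to 0.67 for *Rptor* and *Tsc2*, and 6 of the 7 negative pairs held *Rheb*. With the GC trend removed the median was 0.048. *Rictor* and *Tsc2* then stood highest, at 0.78, in place of 0.43 before, and *Mtor* and *Tsc2* went from 0.59 to 0.064. Over the whole table, the genes most like *Tsc2* in this measure were *Elk1* (r = 0.93) and *Gak* (0.91), those most like *Rptor* were the synaptic scaffold genes *Shank2* (0.90) and *Srcin1* (0.89), and those most like *Rheb* were *Sub1* (0.94) and *Ssb* (0.89), which encode nucleic acid-binding proteins. *Mtor* was closest to *Man2a2* (0.86) and *Nol6* (0.84), *Rictor* to *Zfp280d* (0.79) and *Slc6a8* (0.75), *Tsc1* to *Mboat7* (0.77) and *Grk3* (0.75), and *Akt1* to *Fam213a* (0.81) and *Nup205* (0.76). After removal of the GC trend these r values were 0.86 and 0.79 for *Tsc2*, 0.84 and 0.80 for *Rptor* and 0.86 and 0.76 for *Rheb*, but 0.15 and 0.14 for *Akt1*. The genes named as most alike were picked for the highest r over the whole table, and no background was set beside them.

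Around the core, 131 genes were listed by their role in the pathway, and 75 were in the table. In HF-HI 35 of these were higher and 16 lower, 46.7% and 21.3% of those tested, where 32.6% and 33.6% of all genes were, and their median log2 difference was 0.058 against -0.0086 over all genes. That split rested on the scaling: it was 17 higher and 21 lower with library medians centred, 22 and 20 with quantile normalization, and 20 and 17 with the GC trend removed. The groups did not overlap for 9 of the 75, or 12.0%, against 13.5% of all genes. Of the TSC complex and Rheb, 3 tested of 5, 1 was higher and 0 lower. The adjusted p-values that follow are from limma's moderated test over all genes.

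**Figure D5:**
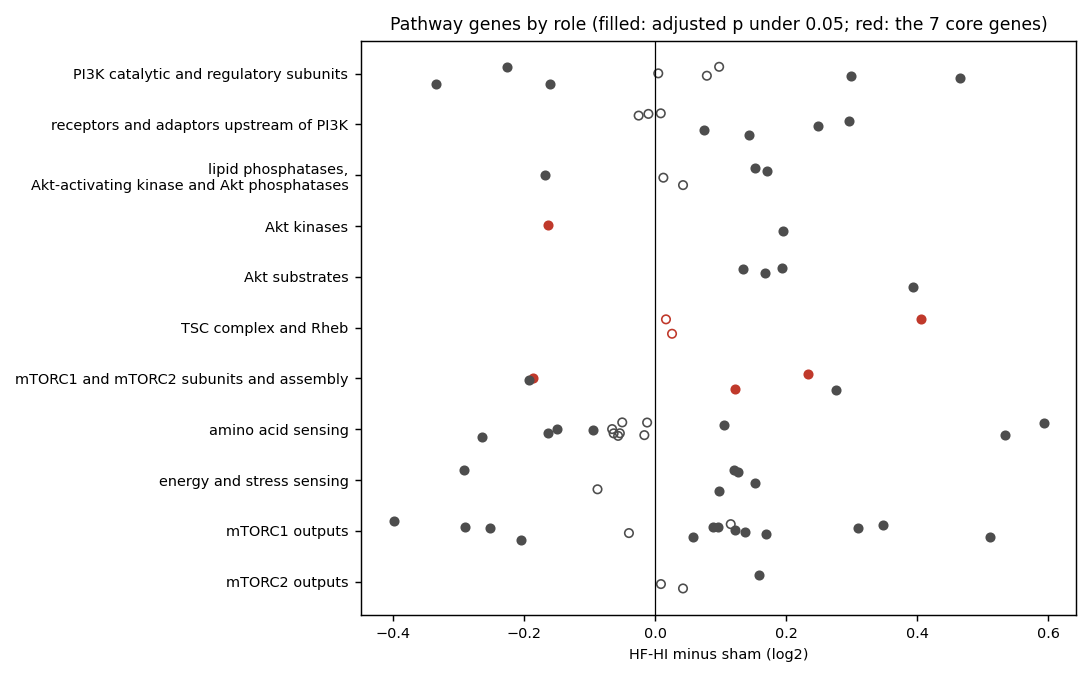
Difference between HF-HI and sham (log2, horizontal axis) of 72 of the 75 pathway genes tested, by role (vertical axis), 1 point per gene, filled where the adjusted p was under 0.05 and red for the 7 core genes. Genes of both directions stand under most roles, and the points span -0.40 (*Rps6*) to 0.59 (*Sesn3*).

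Upstream, 8 of 12 listed PI3K subunits were tested, with 2 higher and 3 lower as deposited, where 32.6% and 33.6% of all genes were. With the GC trend removed 3 were higher and 3 lower, against 29.2% and 31.0% of all genes. *Pik3r2*, a regulatory subunit of class I PI3K, was higher by 0.47 (adjusted p = 1.89e-06), and 0.17 with the GC trend removed (adjusted p = 7.64e-04). *Pik3r4*, the regulatory subunit of the class III kinase that works in autophagy, was higher by 0.30 (adjusted p = 9.53e-07, 0.27 with the GC trend removed), with no overlap between the groups. *Pik3c2a*, a class II catalytic subunit, fell by 0.33 (adjusted p = 1.25e-06, -0.19 with the GC trend removed), again without overlap, from 9.72 to 10.06 in sham and from 9.46 to 9.68 in HF-HI. Of 7 receptors and adaptors tested of 12, 4 were higher and 0 lower as deposited, where 32.6% and 33.6% of all genes were. That count turned to 2 higher and 1 lower with the GC trend removed, and 2 of the 7 were called with library medians centred or with quantile normalization. The insulin receptor substrate gene *Irs1* was higher by 0.30 (adjusted p = 4.07e-06, 0.24 with the GC trend removed). *Shc3*, a neuronal adaptor, was higher by 0.25 and *Igf1r*, the IGF-1 receptor, by 0.14 (adjusted p = 0.00225 and 0.0233), and neither passed with the GC trend removed (0.064 and 0.12). Without sham replicate 6, 2 receptor and adaptor genes were past the threshold, and *Igf1r* then stood at 0.12 (adjusted p = 0.0505).

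Of the enzymes that remove the PI3K product or act on Akt directly, 6 of 10 were tested. Of these 2 were higher and 1 lower as deposited, where 32.6% and 33.6% of all genes were. With the GC trend removed 0 were higher and 1 lower, against 29.2% and 31.0% of all genes. *Pdpk1*, which encodes PDK1, the kinase of the activation loop of Akt, fell by 0.17 (adjusted p = 2.64e-05), and stood at -0.13 with the GC trend removed (adjusted p = 3.80e-04). *Phlpp1*, a phosphatase of Akt, was higher by 0.17 (adjusted p = 8.31e-05) and *Inpp4a*, a lipid phosphatase, by 0.15 (adjusted p = 0.0210), and neither passed with the GC trend removed (0.028 and 0.11).

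Of 10 listed Akt substrates, 4 were tested and 4 were higher as deposited, as were 32.6% of all genes. With the GC trend removed 2 of the 4 were higher, against 29.2% of all genes, and 2 were called with library medians centred or with quantile normalization. *Gsk3b*, a kinase inhibited by Akt that also phosphorylates tau, rose from 11.91 ± 0.0994 (SD, n = 10) to 12.30 ± 0.0816 (SD, n = 11) without overlap between the groups, a log2 difference of 0.39 (adjusted p = 2.32e-08), and 0.43 with the GC trend removed. Its paralogue *Gsk3a* was higher by 0.19 close to the threshold (adjusted p = 0.0441), fell short in 14 of 21 fits with 1 library omitted, and turned to -0.067 with the GC trend removed. *Foxo3*, a transcription factor that Akt keeps out of the nucleus, was higher by 0.17 (adjusted p = 0.00145), and 0.054 and short of the threshold without the GC trend.

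Of the 12 genes of the mTOR complexes and their assembly, 5 were tested and 5 called, 3 higher and 2 lower, where 66.3% of all genes were called, 32.6% higher and 33.6% lower. With the GC trend removed 3 of the 5 were called, 2 higher and 1 lower, against 60.2% of all genes, 29.2% higher and 31.0% lower. Besides *Mtor*, *Rptor* and *Rictor* these were *Deptor*, an inhibitor bound to both complexes, higher by 0.28 (adjusted p = 3.07e-04, 0.33 with the GC trend removed), and *Mapkap1*, the gene of the mTORC2 subunit Sin1, which fell by 0.19 (adjusted p = 0.0255, -0.26 with the GC trend removed). *Mapkap1* fell short of the threshold without sham replicate 6 (-0.17, adjusted p = 0.0532) and without sham replicate 7 (-0.16, adjusted p = 0.0550). *Mlst8*, *Akt1s1*, *Tbc1d7*, *Rhebl1* and *Eif4ebp2* were not among the genes of the table and so were not tested.

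Amino acids and energy reach mTORC1 through the Rag GTPases and AMPK. Of 15 amino acid sensing genes tested of 29, 4 were higher and 4 lower as deposited, where 32.6% and 33.6% of all genes were. With the GC trend removed 3 were higher and 4 lower, against 29.2% and 31.0% of all genes. *Sesn3*, a sestrin that restrains mTORC1 through GATOR2, rose from 9.23 ± 0.212 (SD, n = 10) to 9.82 ± 0.0880 (SD, n = 11) without overlap, the largest difference of the 75 at 0.59 (adjusted p = 7.73e-08, 0.65 with the GC trend removed). *Castor2*, of the arginine sensor family, was higher by 0.53 (adjusted p = 3.84e-07, 0.41 with the GC trend removed). Of 12 energy sensing genes 6 were tested, with 4 higher and 1 lower as deposited, where 32.6% and 33.6% of all genes were, 2 higher and 1 lower with the GC trend removed, and 2 called with library medians centred. *Cab39*, a cofactor of the AMPK-activating kinase Lkb1, fell by 0.29 (adjusted p = 1.49e-05, -0.24 with the GC trend removed). *Stk11*, which encodes Lkb1, was higher by 0.15 (adjusted p = 0.00864), and at -0.10 and uncalled with the GC trend removed, and *Prkag2*, an AMPK subunit, was higher by 0.13 (adjusted p = 0.00632) and not past it at 0.071 with the GC trend removed.

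Downstream of mTORC1, 15 of 22 genes were tested, with 9 higher and 4 lower as deposited, where 32.6% and 33.6% of all genes were. With the GC trend removed 5 were higher and 5 lower, against 29.2% and 31.0% of all genes. With library medians centred 7 of these 15 were called in place of 13. *Pdcd4*, a brake on the helicase eIF4A that is degraded after phosphorylation by S6 kinase, rose from 8.96 ± 0.265 (SD, n = 10) to 9.47 ± 0.0649 (SD, n = 11) without overlap, by 0.51 (adjusted p = 4.84e-06, 0.54 with the GC trend removed). *Rps6*, the ribosomal protein that S6 kinase phosphorylates, fell by 0.40 (adjusted p = 2.24e-07, -0.56 with the GC trend removed), from 11.08 to 11.54 in sham and from 10.75 to 10.98 in HF-HI, and its reads may be shared with near-identical pseudogenes. *Eif4g3*, a scaffold of cap-dependent translation, was higher by 0.35 without overlap (adjusted p = 7.66e-07, 0.29 with the GC trend removed). *Rps6kb1*, the S6 kinase gene itself, had a difference of -0.040 (adjusted p = 0.399), and was called at 0.097 with the GC trend removed (adjusted p = 0.0110). Of the outputs of mTORC2, 3 of 5 were tested, with 1 higher and 0 lower, beside 32.6% and 33.6% of all genes. The 1 was *Ndrg1*, higher by 0.16 (adjusted p = 0.0334) and short of the threshold in 7 of 21 fits with 1 library omitted. With the GC trend removed it was at 0.10 (adjusted p = 0.191). *Sgk1*, a kinase activated by mTORC2 (0.043, adjusted p = 0.634, -0.0021 with the GC trend removed), and *Prkca*, a protein kinase C that mTORC2 stabilizes (0.0089, adjusted p = 0.890, 0.033 with the GC trend removed), were not past the threshold.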

How the data were processed

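Cortical RNA of 10 sham and 11 HF-HI mice was compared. For this the authors prepared stranded libraries of rRNA-depleted total RNA, aligned reads to mm10 with STAR, counted them per transcript with eXpress and normalized them with DESeq2, and the deposited values are variance-stabilized on a log2 scale, 1 per Ensembl gene. The annotation they used, the versions of STAR and eXpress and the strand setting are not given in the sources used here. All columns were matched to a library. Counts were not analysed here, so total depth is unknown, and relative depth was taken from the spacing of values between 500 and 600 on the linear scale. Within-group SDs, 0.104 at the median over genes, set the precision of every difference. Labels do not name sequencing pools, so pools were not compared. No 2 libraries held identical values.

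Symbols (5541 genes), lengths and GC content (5539) were from GENCODE M21, on GRCm38, the assembly of mm10. Reads shared between near-identical copies may have been split by the counting per transcript. The test was that of limma 3.58.1 (R 4.3.3, lmFit, eBayes with a trend, two-sided, adjusted p under 0.05), tested on simulated data. Pairs of genes were compared by permutation tests of 100000 resamples with scipy 1.17.1 in Python 3.11.15. GC trends of each library were removed by lowess with a span of 0.3, on deviations from the mean of all libraries, a step that takes out real differences tied to GC content as well. Alternatives were an adjusted p of 0.1, a minimum difference of 0.25, eBayes without a trend, centred medians, quantile normalization, the lowest quartile (25%) left out, replicate blocks, a depth covariate and each library left out. Named genes are the 7 members, partners fixed by name, the 3 largest differences of each pathway list and the 2 genes most correlated with each member; *Pkd1*, *Rptoros* and *Nthl1* were named after seeing that they overlap. Some of these genes, and 1 of the 4 pairs, are not reported here. The members and lists were chosen with earlier results of these data known.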

Additional observations from a re-analysis of the deposited data

Results flagged for a closer look

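Among the sham values of the 34 genes tested by name and of 3 pairs of genes, 2 of 37 sets held 1 library far from the other sham libraries, where chance gives about 1 in 20. For *Phlpp1*, sham replicate 8 was highest at 10.58, with the next at 10.46, a gap of 0.574 of the range of the group. For *Prkca*, sham replicate 4, the sham library with the lowest relative depth, was lowest at 11.04, with the next at 11.29, a gap of 0.534 of the range. Without it the difference of *Prkca* went from 0.0089 to -0.028 (adjusted p = 0.582 from limma's moderated test). HF-HI groups hold 11 libraries and were not examined in this way.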

How the results depend on the processing

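The calls of *Tsc2*, *Rptor* and *Akt1* held under every alternative except the minimum difference of 0.25, which *Rptor* and *Akt1* did not reach, and the calls of all 5 core genes held with each library left out in turn. A minimum difference of 0.25 left 1433 genes in all, 18 of the pathway and 1 of the core, in place of 3674, 51 and 5. Removing the GC trend left 3 core genes, also with the replicate block, where the pathway count was 33. With the GC trend removed, *Mtor* minus *Rheb* turned to -0.041. With each library left out, the change of *Mtor* minus *Rheb* ran from 0.071 to 0.14. Signs turned for genes near 0: with library medians centred *Tsc1* -0.026, *Rheb* -0.035, *Sgk1* -0.0094 and *Prkca* -0.043, with quantile normalization *Tsc1* -0.011, *Rheb* -0.031 and *Prkca* -0.018, and with the depth covariate *Prkca* -0.039. With the GC trend removed, and then also with the replicate block, *Tsc1* was at -0.019 and -0.019, *Rps6kb1* at 0.097 and 0.11, *Gsk3a* at -0.067 and -0.074, *Stk11* at -0.10 and -0.086, and *Sgk1* without the block at -0.0021. With each library left out, *Rheb* ran from -0.012 to 0.047, *Sgk1* from -0.0027 to 0.070 and *Prkca* from -0.028 to 0.024. The cause of these changes was not tested. Same-numbered sham and HF-HI libraries deviated together with r over 0.1 in 4 of 10 pairs (-0.31 to 0.36), 0 sham and 1 HF-HI libraries correlated best with their own number, and the replicate block gave 3498 calls in all, 43 in the pathway and 5 in the core, with *Mapkap1* (-0.16, limma adjusted p = 0.0840), *Gsk3a* (0.19) and *Ndrg1* (0.15) short of the threshold and 2 of the 4 Akt substrates called. Unknown total depth limits what can be said of genes with few reads.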
